A study of Mus musculus with 2 samples.

Results

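The Snhg genes are noncoding host genes of small nucleolar RNAs (snoRNAs), and 8 of them were listed for description: Gas5, Snhg3, Snhg4, Snhg5, Snhg6, Snhg8, Snhg12 and Snhg15. Members were taken by gene symbol from the rows of the count matrices, and 2 of the 8, Snhg6 and Snhg12, had a named row among the 26893 named genes. The other 6 had no named row and were not analysed here. The data were 2 droplet single-cell RNA libraries of mouse germ cells from C57BL/6 animals. Spermatogonia were isolated from adult testes by THY1+ magnetic sorting, grown on mitomycin-treated SNL76/7 embryonic fibroblast feeders in serum-free medium with GDNF and bFGF, and transfected off the feeders, on plastic, with siRNA at 75 pmol using 2 µL of Lipofectamine. The control siRNA group received a non-targeting siRNA and the Chd4 siRNA group an siRNA against Chd4, which encodes an ATP-dependent chromatin remodeller of the NuRD complex, and both were collected after 24 h. Each group was 1 library made from equal numbers of cells of 3 biological replicates mixed before capture. No replicate check of any difference between the siRNA groups was therefore possible: intervals below are 95% counting intervals, and a difference between the groups cannot be told apart from a difference between these 2 libraries.

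A snoRNA host gene carries its snoRNAs in introns, and the snoRNAs are trimmed out of the spliced-out introns to guide 2′-O-methylation (box C/D) or pseudouridylation (box H/ACA) of ribosomal and other RNAs. The exons are joined into a capped, polyadenylated RNA that encodes no long conserved protein. In many of these hosts the spliced RNA starts with a pyrimidine tract like that of ribosomal protein mRNAs (a 5′ terminal oligopyrimidine, or TOP, start), is engaged by ribosomes and is turned over by nonsense-mediated decay, so its level responds when translation is slowed.

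Snhg6 (ENSMUSG00000098234) is annotated in GENCODE M21 as a lincRNA on the minus strand at chr1:9941959-9944118 of the GRCm38 (mm10) assembly, with 5 transcripts of 400 to 816 bases and 1 snoRNA, Snord87, in its span. Snhg12 (ENSMUSG00000086290), also a lincRNA, lies on the plus strand at chr4:132308623-132311024, with 10 transcripts of 422 to 1538 bases and the snoRNAs Snora16a, Snora44, Snora61 and Snord99 in its span. The snoRNAs are what these loci deliver, so 2 of each class are shown from the same annotation, with the box C (TGATGA) and box D (CTGA) motifs of Snord87 and Snord99 and the ACA box of Snora16a and Snora61 in capitals.
Snord87: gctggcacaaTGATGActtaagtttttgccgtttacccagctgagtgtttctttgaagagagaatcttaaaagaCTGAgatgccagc
Snord99: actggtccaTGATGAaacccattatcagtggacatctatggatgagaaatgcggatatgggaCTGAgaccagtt
Snora16a: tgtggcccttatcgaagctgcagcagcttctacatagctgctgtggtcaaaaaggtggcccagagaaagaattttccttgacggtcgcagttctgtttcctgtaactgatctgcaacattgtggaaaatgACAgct
Snora61: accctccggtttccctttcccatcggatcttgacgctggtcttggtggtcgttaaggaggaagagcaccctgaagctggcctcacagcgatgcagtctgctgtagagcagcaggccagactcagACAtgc
All counts below are those of the host gene's row. The libraries count 1 tag near the poly(A) end of each captured molecule, and the last 100 bases of the annotated RNAs are shown for that reason, with the AATAAA polyadenylation signal in capitals.
Snhg6-202: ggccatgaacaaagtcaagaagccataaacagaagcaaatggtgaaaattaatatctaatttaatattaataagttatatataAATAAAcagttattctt
Snhg6-203: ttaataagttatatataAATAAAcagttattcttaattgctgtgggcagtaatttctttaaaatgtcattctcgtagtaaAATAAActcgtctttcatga
Snhg12-201: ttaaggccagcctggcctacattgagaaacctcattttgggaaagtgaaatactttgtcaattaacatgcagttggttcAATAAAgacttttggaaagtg
In Snhg6, 4 of the 5 annotated RNAs end within 21 bases of the first signal and 1 runs on to a second, and 8 of the 10 Snhg12 RNAs hold a signal in their last 100 bases. The last 127 bases of Snhg6 lie antisense to Mcmdc2, whose row held 29 and 37 UMIs in the germ cells of the control and Chd4 siRNA libraries. RefSeq's promoter table for GRCm38.p6 held an entry for Snhg12, shown from 50 bases before to 50 after its start (chr4:132308628-132308727, plus strand) because a TOP start is defined there. Its longest run of C or T between 10 bases before and 30 after the start is in capitals.
Snhg12 start: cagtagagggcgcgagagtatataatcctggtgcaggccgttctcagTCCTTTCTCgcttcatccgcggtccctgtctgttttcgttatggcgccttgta
This run, TCCTTTCTC, is 9 bases long, and 9.17% of 32851 promoters in the table held a run at least as long in the same window. The median was 5 bases over all promoters and 7 over those of 70 cytosolic ribosomal protein genes. GENCODE starts Snhg12 at 132308623, before the stretch shown, so the 2 annotations differ on where its start lies. The letters are a description and not evidence of a TOP start in these cells.

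Cells were split by the UMIs of Dazl and Ddx4, which encode germ cell RNA-binding proteins, against those of Col1a1 and Fn1, which encode fibroblast matrix proteins. Germ cells numbered 723 of 816 (control siRNA) and 755 of 860 (Chd4 siRNA), with medians of 15316 and 15598 UMIs per cell. Feeder cells numbered 75 and 84, at 39926 and 42375.5 UMIs, and 18 and 19 cells met neither rule. All 13 germ cell markers were found in the germ cells, at a summed 2628 and 2799 UMIs per 1000000 named UMIs (CPM) against 113 and 94.4 in the feeder cells. Fibroblast markers summed to 82.4 and 84.3 CPM in germ cells and 2693 and 2890 CPM in feeder cells, and spermatocyte and spermatid markers to 234 and 236 CPM in germ cells. The 5 Sertoli markers summed to 227 and 227 CPM in feeder cells and 21.4 and 21.7 CPM in germ cells, and their part in feeder values was not tested. The Leydig, macrophage, endothelial and myoid lists were at or under 15.2 CPM in both classes. Chd4 itself was at 537 CPM in control germ cells and 253 CPM in Chd4 siRNA germ cells (log2 ratio -1.08, interval -1.15 to -1.02), and at 154 and 51.9 CPM in feeder cells. The barcode lists held 817 entries for 817 matrix cells (control) and 799 for 861 (Chd4 siRNA), and 1 barcode was in both lists, a count that covers only the barcodes listed.

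Snhg6 was lower in the Chd4 siRNA library than in the control library, whereas Snhg12 had nearly equal levels in both libraries. In germ cells Snhg6 held 3144 UMIs, or 272 CPM (262 to 281), in the control library and 2656 UMIs, or 217 CPM (209 to 226), in the Chd4 siRNA library. The intervals of the 2 levels did not overlap, and the log2 ratio of Chd4 siRNA over control siRNA was -0.32 (-0.40 to -0.25). Snhg12 held 327 and 360 UMIs in the same cells, or 28.3 CPM (25.3 to 31.5) and 29.5 CPM (26.5 to 32.7). Its log2 ratio was 0.060 (-0.16 to 0.28), an interval that includes 0 and does not reach the value of Snhg6. The median of all 8248 genes with at least 200 UMIs in germ cells was 0.05.

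With 1 library a group, a gene was called higher when its ratio was at least 25% above 1, and lower when at least 20% below 1, the inverse. In germ cells 4.58% of genes were higher and 3.87% lower by that line, and 0 of the 2 members passed it in either direction. Snhg6, at a ratio of 0.8002, lay just inside it. Small changes of processing moved it across: with edgeR's TMM factors, DESeq2's size factors, totals without ribosomal protein genes or totals over all matrix rows, and likewise with a class ratio of 4 to 1 or Scrublet calls left out, Snhg6 passed the line and the count was 1. The share of cells with a UMI, read from the same UMIs and over cells of 1 library a group, was lower too. After each cell was thinned to 9000 UMIs, which kept 665 and 696 germ cells and left out 58 and 59, Snhg6 was found in 85.7% (82.8 to 88.3) and 81.2% (78.1 to 84.0) of them, a difference of -4.54 percentage points (-8.57 to -0.48). In another thinning draw the shares were 86.9% and 79.0%, a difference of -7.89 points. Unthinned, these shares were 93.4% and 90.5%. Snhg12 was found in 18.0% (15.2 to 21.2) and 17.8% (15.0 to 20.9) of thinned germ cells, and in 29.6% and 28.6% unthinned.

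**Figure D1:**
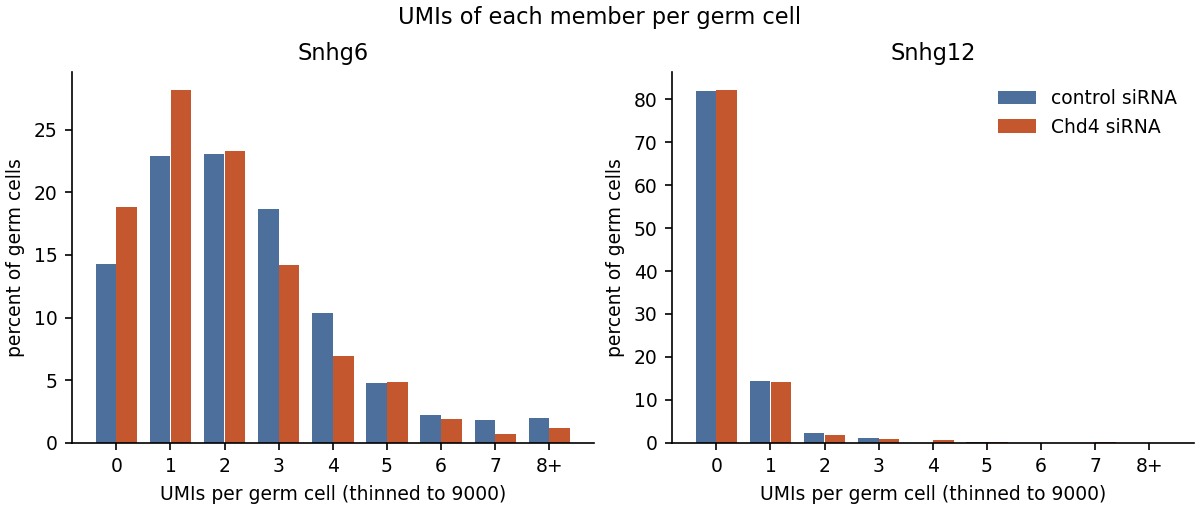
Percent of germ cells (y axis) with each number of Snhg6 (left) or Snhg12 (right) UMIs (x axis, 8 or more pooled) after thinning to 9000 UMIs, in 665 control siRNA cells and 696 Chd4 siRNA cells. For Snhg6 the Chd4 siRNA bars are taller at 0 and 1 UMI and shorter at 3 and 4, while the Snhg12 bars nearly coincide.

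In feeder cells both members were at lower values in the Chd4 siRNA library. Snhg6 held 501 and 464 UMIs, or 160.0 CPM (146 to 175) and 131 CPM (119 to 143), a log2 ratio of -0.29 (-0.48 to -0.11). Snhg12 held 129 and 130 UMIs, or 41.2 and 36.6 CPM, a log2 ratio of -0.17 (-0.53 to 0.19). By the same line, 9.28% of the 4182 feeder genes with 200 UMIs were higher and 11.7% lower, and again 0 of the 2 members was. The feeder value of Snhg6 was noisy in thinned cells: its log2 ratio was 0.085 in one draw of 9000 UMIs per cell and -0.32 in another. A single control feeder cell held 32 of the 129 Snhg12 UMIs, and without the richest cell of each library the levels were 31.4 and 31.6 CPM.

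**Figure D2:**
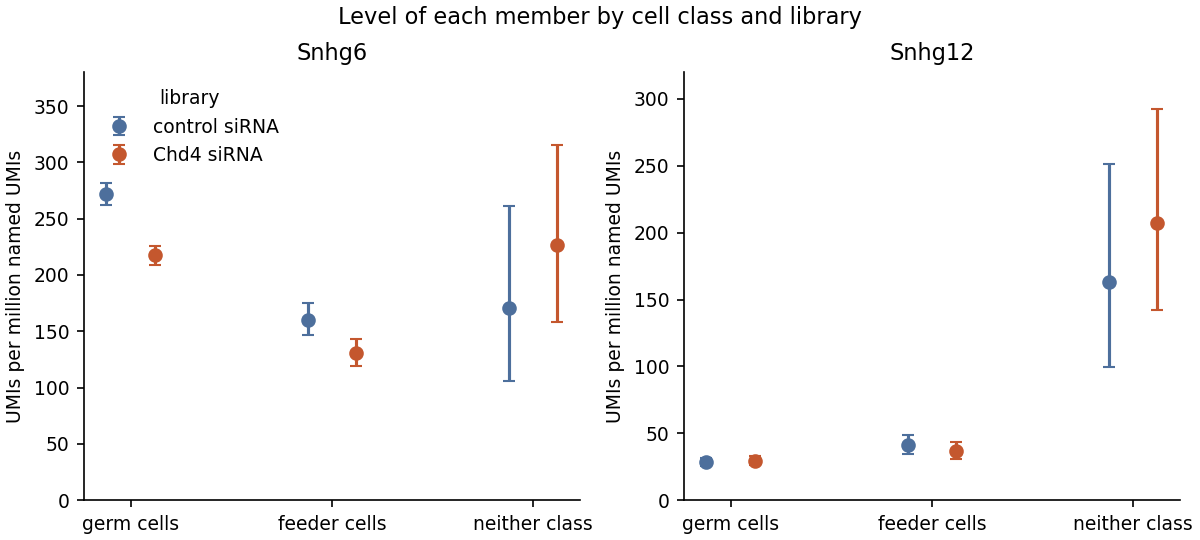
CPM over named UMIs (y axis) of Snhg6 (left) and Snhg12 (right) in germ cells, feeder cells and cells of neither class, for the control siRNA and Chd4 siRNA libraries, with exact Poisson 95% intervals as bars. Snhg6 is highest in germ cells of the control library, at 272, and Snhg12 is highest in the 18 and 19 cells of neither class, at 163 and 207.

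The members had opposite orders between the classes. Snhg6 was higher in germ than in feeder cells, 1.70-fold (1.54 to 1.87) in the control library and 1.66-fold (1.51 to 1.84) in the Chd4 siRNA library. Snhg12 was lower in germ cells, at 0.686 (0.558 to 0.848) and 0.804 (0.656 to 0.990) of its feeder level. Neither reached the 2-fold line used between classes, which 33.1% of 7211 genes passed upward and 15.8% downward in the control library, and 35.6% and 16.1% of 7479 in the Chd4 siRNA library. Between so different classes the scaling moved values: the log2 ratio of Snhg6 was 0.76 and 0.73 as reported and 0.54 and 0.44 with DESeq2's size factors, and that of Snhg12 was -0.54 and -0.31 against -0.77 and -0.61. The Snhg12 difference rested in part on single cells, since without the richest cell of each class it was -0.18 and -0.15. Both RNAs were found in both classes: Snhg11, at 212 CPM in Chd4 siRNA germ cells, had a UMI in 2.44% of thinned feeder cells of that library, while Snhg6 had one in 64.6% and Snhg12 in 20.7% of them.

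Beside the 2 members, 10 rows of the list of other hosts were named in the matrices, among them Snhg11, which the annotation calls protein coding, and Meg3, with no annotated snoRNA in its span. Of these rows, 7 had at least 200 UMIs in germ cells. Their median log2 ratio of Chd4 siRNA over control was -0.03, with 0 higher and 1 lower past the call line. The lower one was Snhg9, host of Snora78, at 16.4 and 11.1 CPM (log2 ratio -0.56, interval -0.89 to -0.24). Snhg9 is a short RNA of 183 bases that the annotation calls antisense, and no source used here says whether counting used strand. Whether reads of a gene on the other strand entered its row was not tested. Snhg20 stood at 61.7 and 54.4 CPM, a log2 ratio of -0.18 (-0.34 to -0.03). The others lay nearer 0: Zfas1, host of box C/D snoRNAs, at -0.03, Snhg11 at 0.08 and Snhg16 at 0.10. Over all 9 annotated noncoding genes with a snoRNA inside and 200 UMIs the median was -0.12, against 0.06 over 182 coding genes with one. These lists are small, and the values are given as a description.

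**Figure D3:**
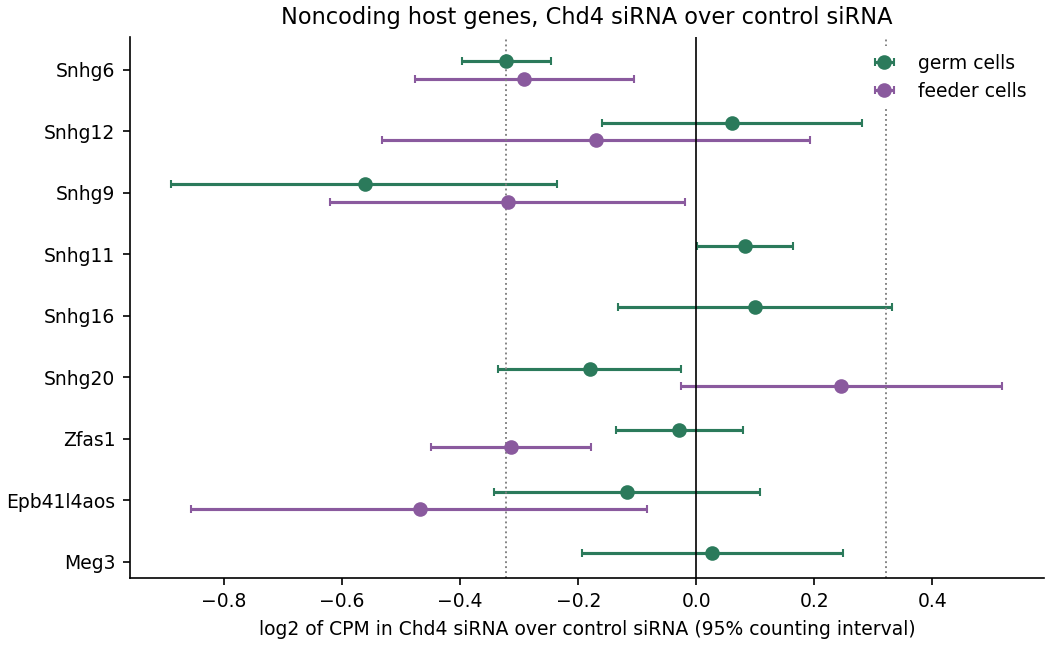
Log2 ratio of CPM in Chd4 siRNA over control siRNA (x axis) for each host gene of the lists with at least 200 UMIs in the class (y axis), in germ and feeder cells, with exact conditional binomial 95% intervals. The dotted lines mark the call line. In germ cells Snhg6 (-0.32) and Snhg9 (-0.56) lie lowest, and Snhg12 (0.060) lies with Snhg11 (0.08) and Snhg16 (0.10).

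Short genes stood apart in these ratios. Among germ cell genes with a median transcript under 500 bases, 15.4% were lower past the call line, against 4.19% of those of 500 to 750 bases, where Snhg6 (559 bases) falls, and 2.57% of those of 750 to 1000 bases, where Snhg12 (915.5 bases) falls. The longer bins, 1000 to 2000, 2000 to 4000 and over 4000 bases, were at 3.17%, 3.30% and 5.04%. Over all genes the share was 3.87%. Snhg9 (183 bases) falls in the shortest bin. The part of transcript length in these differences was not tested.

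Gene lists around the life cycle of the hosts were described in the same germ cells. Of 14 protein-coding, non-ribosomal snoRNA hosts with 200 UMIs, 0 passed the call line in either direction and the median was 0.13. The ends of this list were Gnl3, a nucleolar GTPase, at -0.17, and Hspa8, a constitutive chaperone, at 0.30. Of 77 cytosolic ribosomal protein genes, 0 were higher and 15 lower past the line, and the median was 0.02. Rpl29 (-0.72) and Rps28 (-0.69) were lowest and Rpl4 (0.19) and Rpl11 (0.14) highest. All 16 other TOP mRNAs of translation had ratios above 0, while 3029 of all 8248 germ cell genes were below 0. This TOP list shares Eef2 and Eef1b2, among others, with the protein-coding hosts above. The TOP list had a median of 0.18 and 0 past the line in either direction, with the elongation factors Eef2 (0.28) and Eef1a1 (0.22) highest. Snhg6, at -0.32, lay outside the range of that list, 0.080 (Eef1b2) to 0.28.

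The 16 nonsense-mediated decay factors, which include the helicase Upf1 and the kinase Smg1, had a median of -0.01, with 0 past the call line in either direction, and the highest was Eif4a3, a core protein of the exon junction complex, at 0.19. Proteins of the snoRNA particles and their assembly had a median of 0.11, from Nop10 (-0.21), of the H/ACA particle, to the AAA+ ATPase Ruvbl1 (0.22), with 0 of 16 past the line. Of 7 integrated stress response genes with 200 UMIs, 2 were higher past the call line, and the median was 0.24. These 2 were Asns, asparagine synthetase, at 31.4 and 40.4 CPM (0.37), and Phgdh, of serine synthesis, at 187 and 235 CPM (0.33). The lowest was Sesn2 at -0.02. Of 39 S phase genes 1 was lower past the line (Pola1, a DNA polymerase subunit, -0.64), and of 50 G2/M genes 1 was higher (Nek2, a centrosomal kinase, 0.40).

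Neighbouring genes were read for comparison. Trnau1ap, 739 bases beyond the 3′ end of Snhg12 on the other strand, was at 74.7 and 75.1 CPM, a log2 ratio of 0.0092 (-0.13 to 0.14). Mcmdc2, the gene that overlaps the end of Snhg6, stood at 2.51 and 3.03 CPM, too few UMIs to show a difference of that size (log2 0.27, -0.47 to 1.03).

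The Snhg6 difference was present in each cell cycle phase scored from S and G2/M lists. Its log2 ratio was -0.30 (-0.46 to -0.14) in G1, -0.25 (-0.44 to -0.06) in S and -0.27 (-0.50 to -0.05) in G2/M. Within the control library Snhg6 stood at 278 CPM in G1 and 249.9 CPM in S, a log2 ratio of 0.15 (-0.014 to 0.32). For Snhg12 the log2 ratio of G1 over S was 0.71 (0.13 to 1.31) in the control library and 0.91 (0.37 to 1.47) in the Chd4 siRNA library, from 19.3 CPM in control S cells to 31.5 CPM in control G1 cells. This order of G1 over S was the same in both libraries. For G1 over G2/M the Snhg12 log2 ratios were 0.35 (-0.23 to 0.95) and 0.49 (-0.08 to 1.09), with intervals that included 0.

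Germ cells with more of their UMIs in ribosomal protein genes also held more Snhg6 relative to their non-ribosomal UMIs. With cells cut into 4 equal bins by that share (medians of 27.3%, 32.0%, 35.5% and 40.2% in the control library), Snhg6 stood at 338, 360, 398 and 515 CPM over non-ribosomal UMIs. In the Chd4 siRNA library it stood at 281, 320, 306 and 401. The highest bin was 1.52-fold (1.33 to 1.75) and 1.43-fold (1.23 to 1.66) above the lowest. The Chd4 siRNA value was the lower in every bin, by log2 ratios of -0.27, -0.17, -0.38 and -0.36, and the interval of the second included 0. Zfas1 was 2.26-fold (1.81 to 2.81) and 1.58-fold (1.29 to 1.94) higher in the top bin. Epb41l4aos, another row of the list of other hosts, was 1.94-fold (1.19 to 3.21) and 1.80-fold (1.20 to 2.73) higher. For Snhg12 the same ratios were 1.59 (0.99 to 2.60) and 1.19 (0.77 to 1.82), so no order of its bins could be read at this depth. Non-ribosomal UMIs fall as the ribosomal share grows, so a gene with a constant share of all UMIs would also rise on this scale. Counted as UMIs of equally thinned cells, Snhg6 rose less, with 374, 366, 383 and 455 UMIs in the control bins. The Chd4 siRNA bins held 326, 347, 315 and 376 UMIs, with the third below the first.

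As a correlation over cells, Snhg6 had r = 0.19 (control, n = 665 cells) and 0.16 (Chd4 siRNA, n = 696) with the log share of ribosomal protein UMIs, and 68 of 7176 and 83 of 7266 genes had a higher r. Snhg12 had r = 0.017 and -0.0056. The median r of the members was 0.10 and 0.075, against -0.031 and -0.030 over all genes. Levels here were also taken over non-ribosomal UMIs, so the limit given for the bins holds for these r values too. These cells share a library, and the values are small and given as a description only.

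Snhg12 was higher in germ cells with more integrated stress response transcripts. This set includes the transcription factors Atf4 and Ddit3, made when phosphorylation of eIF2α slows translation. In bins of thinned cells ordered by the summed UMIs of this list, Snhg12 stood at 16.0, 23.4, 19.4 and 44.8 CPM in the control library. In the Chd4 siRNA library it stood at 12.8, 19.8, 23.0 and 56.2 CPM. The step lay between the third and the highest bin, and the highest was 2.81-fold (1.74 to 4.68) and 4.4-fold (2.68 to 7.55) above the lowest. With cells ordered by the list without Ddit3, the ratios were 1.85 (1.17 to 2.96) and 2.69 (1.74 to 4.27).

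Zfas1 and Snhg16 followed Snhg12 across the same bins, at 2.40-fold and 2.46-fold in the control library and 2.81-fold and 2.92-fold in the Chd4 siRNA library. Epb41l4aos was at 1.26-fold (0.77 to 2.07) in the control library and 1.77-fold (1.12 to 2.85) in the Chd4 siRNA library. Snhg9 was at 1.21-fold (0.64 to 2.30) and 2.22-fold (0.97 to 5.54). For Snhg6 the same ratios were 1.09-fold (0.95 to 1.26) and 1.16-fold (0.998 to 1.34), and for Snhg20 they were 0.82-fold (0.611 to 1.1) and 1.03-fold (0.73 to 1.45). The highest stress bin also had a lower median ribosomal protein share than the lowest, 32.0% against 34.7% in the control library and 30.5% against 33.7% in the Chd4 siRNA library. Its median depth was 15625.5 against 15898 UMIs and 15656 against 16550.5 UMIs. The part of either in these orders was not tested.

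**Figure D4:**
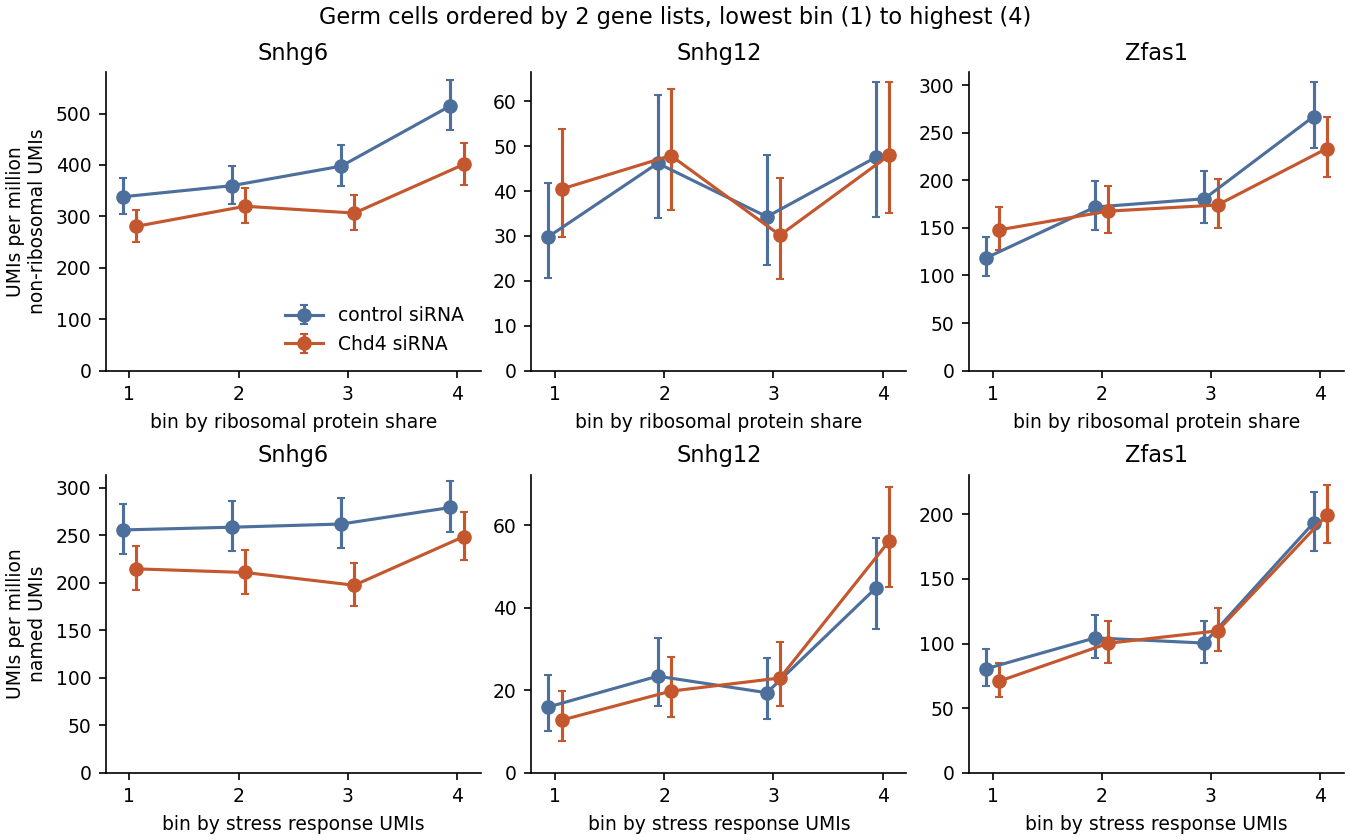
Levels of Snhg6, Snhg12 and Zfas1 (y axes, CPM) in bins of thinned germ cells from lowest (1) to highest (4), ordered by ribosomal protein share (top row, CPM over non-ribosomal UMIs) or by integrated stress response UMIs (bottom row, CPM over named UMIs), with Poisson 95% intervals. Across the ribosomal bins Snhg6 goes from 338 to 515 in the control library, on a scale that itself rises with the ribosomal share. The Snhg12 ratio over those bins, 1.59 (0.99 to 2.60) in that library, has an interval that includes 1. In the stress bins of that library Snhg12 is at 16.0 in the lowest and 44.8 in the highest. Zfas1 is higher in the highest than in the lowest bin of both rows.

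The cells with most Snhg12 were few and stress-rich. Germ cells with 4 or more Snhg12 UMIs, a cut chosen after the values were seen, numbered 9 and 16, and held 13.1% and 30.8% of all germ cell Snhg12 UMIs. Their stress list summed to 1080 and 1757 CPM, against 492 and 564 CPM in cells with no Snhg12 UMI. Zfas1 stood at 480 and 692 CPM against 97.5 and 90.8, and Snhg16 at 110 and 254 CPM against 19.9 and 18.6. Snhg6 was at 412 and 419 CPM against 254 and 205, and Chd4 at 287 and 82.4 CPM against 546 and 257. The cut was made on unthinned counts, and the median depths were 20211 and 15313 UMIs against 15120 and 15322. The part of depth in these values was not tested. The feeder cells showed the same at their extreme: the single richest feeder cell of each library held 32 and 19 Snhg12 UMIs, with the stress list at 1820 and 4028 CPM in those 2 cells against 567 and 671 CPM over all feeder cells. The richest germ cells held 8 Snhg12 UMIs in the control library, with the stress list at 785 CPM against 530 CPM over all its germ cells, and 14 in the Chd4 siRNA library, with 4864 against 646 CPM.

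Genes whose cell-to-cell pattern was most like that of the summed members were ranked by r in both libraries over 7072 genes found in at least 10% of cells. Zfas1 was first (r = 0.23 and 0.27, 665 and 696 cells), and Ddit3, the stress-induced transcription factor CHOP, second (0.16 and 0.19). Rpl22l1 (a paralog of a ribosomal protein), Cct4 (a chaperonin subunit), the members themselves, Rpl10a, Rpl4, Snhg16 and Rpl32 made up the rest of the first 10. Ribosomal protein genes were 20 of the first 100 and 77 of the 7072 compared. Each member was left out of its own sum, so both member places rest on the same r of Snhg6 with Snhg12, 0.14 and 0.15. Snhg6 held 3144 of the 3471 summed UMIs of control germ cells and 2656 of 3016 in the Chd4 siRNA library. The ranking is therefore mostly one of likeness to Snhg6. The median r over all genes was -0.0058 and -0.0031, and all these correlations are weak ones over cells of 1 library.

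Grouped by their own Chd4 UMIs after thinning, germ cells with 0 to 1 Chd4 UMI had more Snhg6 than cells with 4 or more, 1.26-fold (1.09 to 1.45) in the control library and 1.17-fold (1.02 to 1.34) in the Chd4 siRNA library. Snhg6 was therefore higher in cells with few Chd4 UMIs within each library and lower in the library with less Chd4. Snhg12 was 2.27-fold (1.5 to 3.37) and 2.03-fold (1.28 to 3.34) higher in the cells with few Chd4 UMIs. The stress list was also higher there, by 1.15-fold and 1.28-fold, and its part in these differences was not tested.

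**Figure D5:**
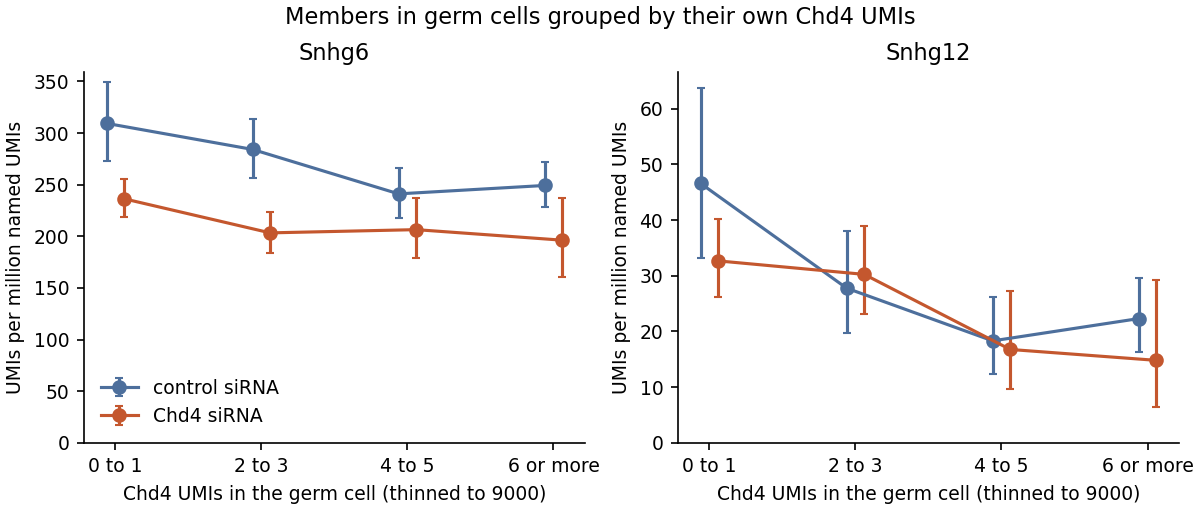
CPM over named UMIs (y axis) of Snhg6 (left) and Snhg12 (right) in germ cells grouped by Chd4 UMIs after thinning to 9000 UMIs (x axis), for each library, with Poisson 95% intervals. Within each library Snhg6 is highest in cells with 0 to 1 Chd4 UMI (309 and 236), and its Chd4 siRNA points lie below its control points in all 4 groups.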

How the data were processed

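Each library was a droplet capture with 10x Genomics v2 chemistry, per the labels' protocols. The deposited files give each gene's unnormalized UMI count in each cell, judged from their whole-number values. The submitters' processing notes list Cell Ranger 2.1.0, Seurat and mm10 without saying what each did, and the counting of strand and the calling of cells are not given in the sources used here. Names were held here for 26893 of 27998 matrix rows. The other 1105 rows, with 12.1% and 12.6% of UMIs, stayed out of totals, and the last, incomplete cell of each matrix was left out.

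Germ cells had at least 2 UMIs of Dazl and Ddx4 and more than of Col1a1 and Fn1, and feeder cells at least 10 UMIs of the latter and more than of the former. Cells under 1000 UMIs were left out. UMIs were summed per class (11572511 and 12217754 in germ cells, 3130940 and 3547946 in feeder cells) and divided by the named total to give CPM. Ratios have exact conditional binomial (Clopper-Pearson), levels exact Poisson and shares Clopper-Pearson 95% intervals, which cover counting error only. Genes with under 200 UMIs over both sides of a comparison, or none on one side, were not counted. UMI counts near the poly(A) end do not scale with length, so levels of different genes were not ranked. Phases were scored with scanpy 1.11.5. Scrublet called 18 and 9 doublets, all in germ cells, and they were kept. Of the 75 and 84 feeder cells, 22 and 28 also held at least 2 UMIs of Dazl and Ddx4. They were kept too, and their part in the feeder values was not tested. edgeR 4.0.16 and DESeq2 1.42.0 gave scaling factors only, and no p-value was computed. The code was tested on simulated data.

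The members, gene lists and tests were chosen with earlier results of these data known. The named genes were the members, up to 2 highest and 2 lowest of each list, further rows of the other hosts, the 10 genes most like the members, Chd4 and neighbours. A gene that this rule names is not reported here. The stress bins, Chd4 groups, richest-cell values and ratios within phases and bins were added after seeing the data. Zfas1 was matched by its identifier (row Zfos1) and Snhg16 by an older symbol (row 1810032O08Rik).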

Additional observations from a re-analysis of the deposited data

Results flagged for a closer look

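Snhg12 had its highest level in the 18 and 19 cells that met neither class rule, at 163 CPM (20 UMIs) in the control library and 207 CPM (32 UMIs) in the Chd4 siRNA library, 5.76-fold (3.47 to 9.05) and 7.04-fold (4.74 to 10.1) above the germ cells. These cells entered no comparison of the report. They were shallow, with medians of 5516 and 5165 UMIs, and their stress list stood at 1181 and 1796 CPM. Their markers were mixed: 13 and 12 of 13 germ cell markers and 8 and 9 of 11 fibroblast markers had a UMI, and Sox9 had 31 and 14 UMIs. Zfas1 was also high there, at 489 and 616 CPM, 4.05-fold and 5.21-fold above the germ cells. So were Snhg18, at 25.3-fold and 7.75-fold, and Snhg9, at 6.45-fold and 6.41-fold. Snhg20 was at 0.53-fold in the control library and 4.41-fold in the Chd4 siRNA library, and Snhg11 at 0.16-fold and 0.34-fold. Snhg6 was not high, at 171 and 227 CPM. How far single cells set these values was not tested. What these cells are was not tested.

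For 2 hosts the ratio of Chd4 siRNA over control siRNA had opposite signs in germ and feeder cells. Snhg12 was at a log2 ratio of 0.060 in germ cells and -0.17 in feeder cells, and without the richest feeder cell of each library its feeder levels were 31.4 and 31.6 CPM. Snhg20 was at -0.18 in germ cells and 0.25 (-0.03 to 0.52) in feeder cells. A single Chd4 siRNA feeder cell held 42 of its 266 Snhg20 UMIs, and without the richest feeder cell of each library the feeder value was 0.070. The share of thinned feeder cells with a Snhg20 UMI was 46.6% and 41.5%, the lower in the Chd4 siRNA library as in germ cells (41.4% and 35.5%). With 1 library a group the difference was not tested for either gene.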

How the results depend on the processing

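No paired analysis was possible because each group is 1 library. The summed members in germ cells were at a log2 ratio of -0.28 (Chd4 siRNA over control siRNA) and at 0.060 with Snhg6 left out of the sum, so Snhg6 sets the sum's direction. In feeder cells the summed ratio was -0.27 and the median of the members -0.23, and in cells thinned to 9000 UMIs they were 0.010 and 0.085, with Snhg6 alone at 0.085. Another draw at the same depth gave -0.37, -0.32 and -0.32, so the sign moved with the draw. The count of members past the call line in germ cells was 0 and became 1 with edgeR TMM factors, DESeq2 size factors, totals without ribosomal protein genes, totals of all matrix rows, a class ratio of 4 to 1, Scrublet calls left out, a 1.1-fold line or another thinning draw, Snhg6 being the member each time. The share of all germ cell genes lower past the line was 3.87% and became 5.15% with TMM, 4.80% with DESeq2 factors, 4.55% and 4.1% with the other totals, 3.86% with the class ratio, 3.90% without Scrublet calls, 4.47% in the other draw and 13.9% at 1.1-fold. In feeder cells the count of members was 0 and became 2 at 1.1-fold, both lower, a line that 28.9% of feeder genes passed downward. Between classes, the summed germ over feeder ratio was 0.58 (control library) and 0.56 (Chd4 siRNA library). It became -0.54 and -0.31 without Snhg6, 0.76 and 0.73 without Snhg12, 0.40 and 0.32 with TMM, 0.35 and 0.27 with DESeq2 factors, 0.39 in the thinned Chd4 siRNA library and 0.42 in another thinning draw of the control library. The count past 2-fold was 0 and became 1 (Snhg6, higher) at 1.5-fold in both libraries, where 45.1% and 47.1% of all genes were higher. The median correlation with ribosomal protein genes was 0.10 and 0.075 and became 0.19 and 0.16 with only members found in at least 25% of cells, which leaves Snhg6. It was 0.14 and 0.10 in another thinning draw, and its lowest values over the 8 alternatives were 0.053 and 0.029. Apart from the alternatives above, the cause was not tested. Depth limits Snhg12: at 327 and 360 germ cell UMIs its interval runs from -0.16 to 0.28 on the log2 scale.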

Other observations

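Several of the other hosts differed more between the cell classes than the members did. Snhg11 was 48.2-fold (28.1 to 90.6) higher in germ than in feeder cells in the control library and 75.1-fold (40.8 to 157) in the Chd4 siRNA library, where the feeder levels were 4.15 and 2.82 CPM. Meg3 held 329 and 354 UMIs in germ cells and 5 and 0 in feeder cells. Snhg18 was at 8.04 and 7.53 CPM in germ cells and 184 and 156 CPM in feeder cells. Snhg9 was at 0.262 and 0.222, and Zfas1 at 0.407 and 0.496, of its feeder level in germ cells.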
